A study of Saccharomyces cerevisiae with 12 samples.

Results

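The 46 genes described here belong to the meiosis and sporulation programme of *Saccharomyces cerevisiae*, and they were measured in vegetatively growing haploid cells, where the programme is normally silent. They were chosen by name, with earlier results of these data known, and were classed from textbook knowledge of when each acts. They make up 46 of the 6400 genes named in the count tables. There are 3 regulators (*IME1*, *IME2* and *NDT80*), 20 early genes of recombination and chromosome pairing, 20 middle genes of the meiotic divisions and spore formation, and 3 mid-late and late genes of spore wall maturation. RNA was sequenced from a *tup1* mutant (tup1::KAN), a *cyc8* mutant (cyc8::KAN), a *tup1 cyc8* mutant (tup1::KAN cyc8::URA3) and their wt parent, with 3 biological replicates of each strain. All 4 strains share the BY4741 background (MATa his3Δ1 leu2Δ0 met15Δ0 ura3Δ0), so every library comes from haploid a cells, and each mutant is 1 strain. Cells were grown in rich medium with 2% glucose to an OD600 of 0.6 to 0.8.

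Sporulation in yeast is a transcriptional cascade that diploid cells enter when glucose and nitrogen run out. The activator Ime1 turns on early genes at promoters held silent by Ume6, the kinase Ime2 reinforces this step, and the activator Ndt80 then replaces the repressor Sum1 at middle genes, after which the spore wall genes are expressed. Tup1 and Cyc8 form a co-repressor that DNA-binding repressors bring to promoters in growing cells, and the comparisons ask how the level of the meiotic genes changes when either gene or both are disrupted.

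In each mutant a small subset of the 46 genes rose steeply and the rest of the programme stayed low. *DIT1*, *DIT2* and *SPS100* of the spore wall, *SGA1*, a glucoamylase that breaks down glycogen, *SPO20*, a membrane fusion protein of the prospore membrane, and *IME1* itself made up nearly all of the increase, while *IME2* and *NDT80* did not pass the test in any mutant. *DIT1* averaged 584 ± 46.8 CPM (read counts scaled to library size) in *tup1*, 306 ± 168 CPM in *cyc8* and 812 ± 154 CPM in *tup1 cyc8*, against 6.08 ± 0.0537 CPM in wt (SD, n = 3 each). A gene was called up or down where edgeR gave an adjusted p of at most 0.01 (quasi-likelihood test, Benjamini-Hochberg over all genes tested) and the log2 fold change reached 1 or -1. In *tup1*, 11 of the 42 genes with enough counts to test were called up, where the share over all genes was 7.27%. In *cyc8* it was 11 of 41, against 12.5% of all genes, and in *tup1 cyc8* 12 of 42, against 13.9%. By edgeR none was called down in *tup1* or *cyc8* (1.43% and 1.91% of all genes), and 1 was in *tup1 cyc8* (1.88%). At an unadjusted p under 0.05, 8 genes were lower in *tup1* and 6 in *cyc8*, and DESeq2 called 1 down in *tup1* and 0 in *cyc8*. The tested genes of the programme had a median log2 fold change of -0.12 (*tup1*), 0.27 (*cyc8*) and 0.32 (*tup1 cyc8*), where the median of all genes was -0.03 in each. Scaled by library size alone, which moved the median of all genes to -0.16, -0.38 and -0.50 in the same mutants, 11 genes were up and 1 down in *tup1*, 10 up and 3 down in *cyc8*, and 9 up and 7 down in *tup1 cyc8*. The calls lost under that scaling were *REC114* in *cyc8* and *HOP2*, *MEI4* and *SAE3* in *tup1 cyc8*. The 3 comparisons share the wt libraries. In RNA from a whole culture, more expressing cells and more RNA per cell cannot be told apart.

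**Figure D1:**
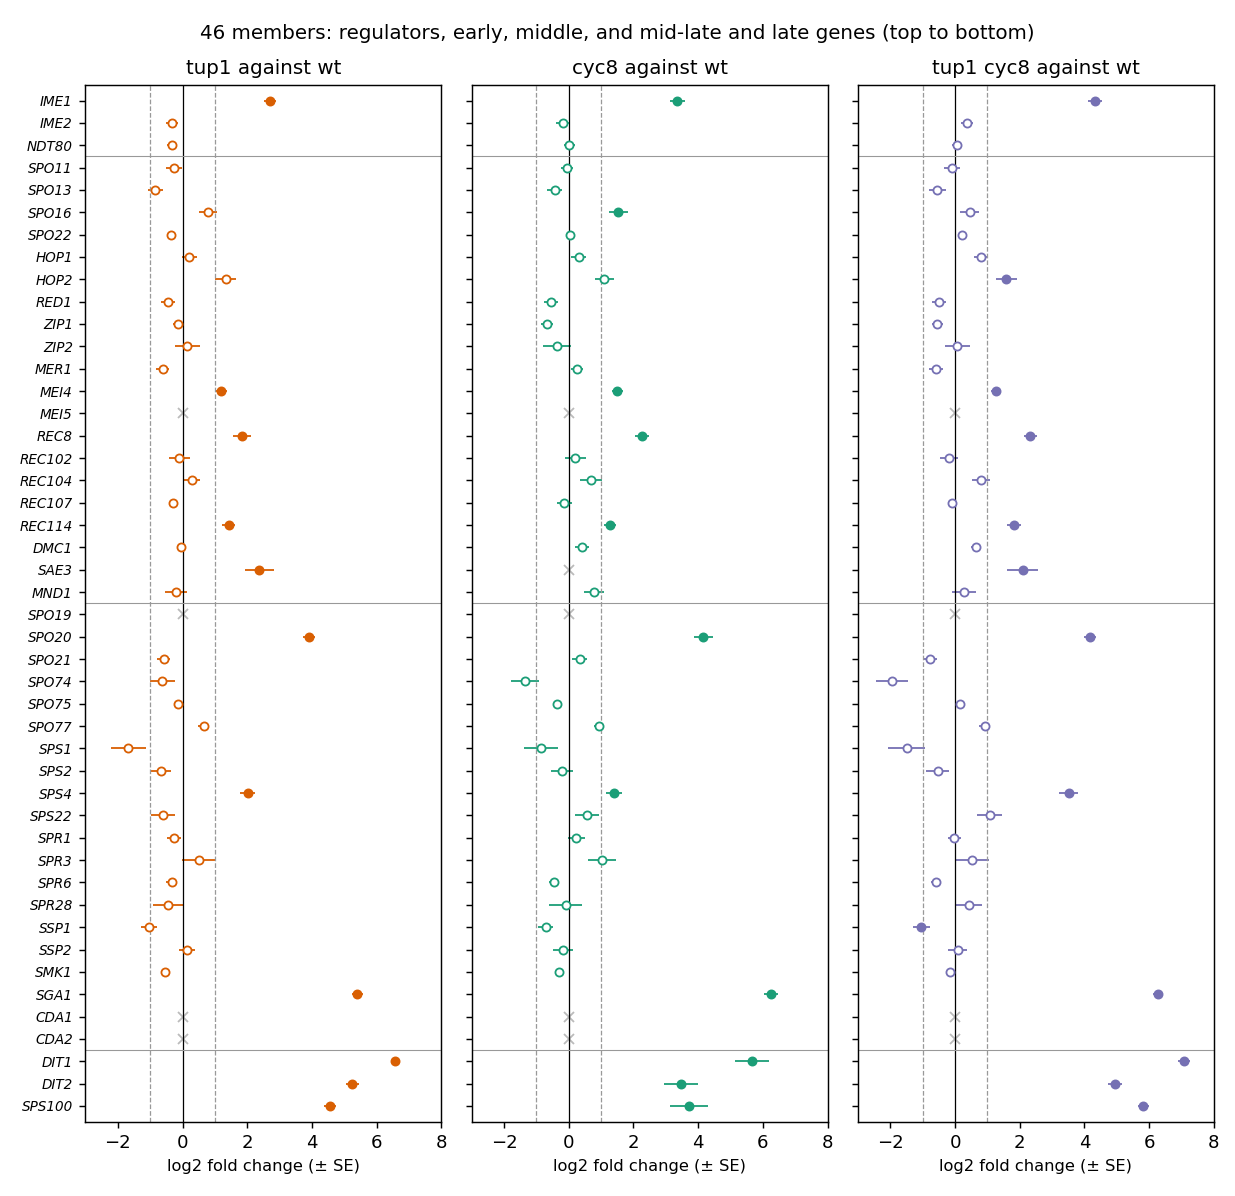
Log2 fold change of each of the 46 genes in *tup1*, *cyc8* and *tup1 cyc8* against wt, with its standard error (3 libraries per strain). Filled points were called, open points were not, grey crosses mark genes with too few counts to test, and dashed lines mark a log2 fold change of 1 in either direction. All 3 late genes and *IME1* lie far to the right in each mutant, while *IME2*, *NDT80* and most early and middle genes lie near 0.

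The libraries held 12643361 to 17898833 counts in named genes. *TUP1* was at 16.9 to 20.8 CPM in *tup1* and 19.5 to 21.5 CPM in *tup1 cyc8*, against 455 to 480 CPM in wt, and *CYC8* was at 7.31 to 9.33 CPM in *cyc8*, against 181 to 198 CPM in wt. In *tup1 cyc8*, where the allele is a URA3 insertion, *CYC8* counts were still at 79.3 to 88.3 CPM, and *URA3* had 411 to 687 counts there and at most 2 in any other library. Whether that allele leaves part of *CYC8* is not stated in the labels, so values of *tup1 cyc8* describe this strain and not a shown absence of both proteins. The labelled mating type was checked with 16 marker genes. *STE2*, the receptor of a cells, was at 471 to 538 CPM in wt, while the alpha cell receptor *STE3* had 32 to 58 counts there and *MF(ALPHA)2*, an alpha pheromone gene, 28 to 39, and *MATALPHA2* of the mating type loci had 15 to 30. *MATALPHA1* and *HMLALPHA1*, which are copies of one sequence, had 0 counts in all 12 libraries, which says little where reads were counted for a single gene each. *SAG1*, the alpha agglutinin, was at 23.4 to 39.1 CPM over all 12 libraries. The a cell genes *MFA1* and *BAR1* were called down in *cyc8* and *tup1 cyc8*, and *STE2* and *STE6* in *cyc8*. The other a cell genes, *MFA2* and *AGA2*, were called in no mutant. *MFA2* lay above every wt library in *tup1* (log2 fold change 0.70) and *tup1 cyc8* (0.69), and overlapped wt in *cyc8* (0.05). *AGA2* overlapped wt throughout, at 0.28 (*tup1*), -0.47 (*cyc8*) and 0.44 (*tup1 cyc8*). The alpha cell gene *STE3* was called down in *tup1* and *cyc8*. The part of these marker genes in the results below was not tested. Replicate 1 of *cyc8* stood apart from the other *cyc8* libraries at *DIT1*, *DIT2* and *SPS100*, and outside the 46 at *RIM4*, *LDS2* and *IRT1*. The *cyc8* values of these genes against wt are given with and without it. That library also stood apart at other genes, among them *SPO20*, *REC107*, *RME1*, *MFA1*, *GAS2* and *NRG2*. None of these gained or lost a call in *cyc8* without it, although *RME1* moved from 0.19 to -0.14 on the log2 scale. *GAS4*, a later gene outside the 46, was called up in *cyc8* only without it (log2 fold change 1.20).

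*IME1* was the only regulator that rose. It had 31.6, 30.6 and 27.8 CPM in *tup1*, 52.9, 46.1 and 39.9 CPM in *cyc8*, and 91.3, 85.8 and 94.0 CPM in *tup1 cyc8*, against 3.71, 3.63 and 6.25 CPM in wt. No mutant library overlapped wt, and no library of one mutant overlapped another mutant. Loss of *TUP1* gave a 6.52-fold rise (log2 fold change 2.70 ± 0.20 (SE), edgeR adjusted p = 2e-05), loss of *CYC8* a 10.2-fold rise (3.35 ± 0.23, adjusted p = 3.6e-05) and *tup1 cyc8* showed a 20.1-fold rise (4.33 ± 0.20, adjusted p = 1.1e-06). *IME1* lies on chromosome X (604569 to 605651, minus strand, in RefSeq R64, the source of every position and sequence given here, as the count tables hold none).

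*IME2*, the kinase that acts next to Ime1, and *NDT80*, the activator of middle genes, showed no such change. *IME2* had 10.7, 8.90 and 9.44 CPM in *tup1*, 8.98, 10.7 and 11.8 CPM in *cyc8*, and 12.8, 15.5 and 17.8 CPM in *tup1 cyc8*, against 15.1, 10.0 and 10.8 CPM in wt. *NDT80* had 15.5, 14.0 and 15.0 CPM in *tup1*, 17.8, 17.2 and 20.9 CPM in *cyc8*, and 21.5, 17.8 and 18.3 CPM in *tup1 cyc8*, against 19.3, 21.3 and 14.6 CPM in wt. At both genes the libraries of each mutant overlapped those of wt. Log2 fold changes lay between -0.33 and 0.37 for *IME2* and between -0.33 and 0.07 for *NDT80*, and the lowest adjusted p from edgeR was 0.14 for each.

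**Figure D2:**
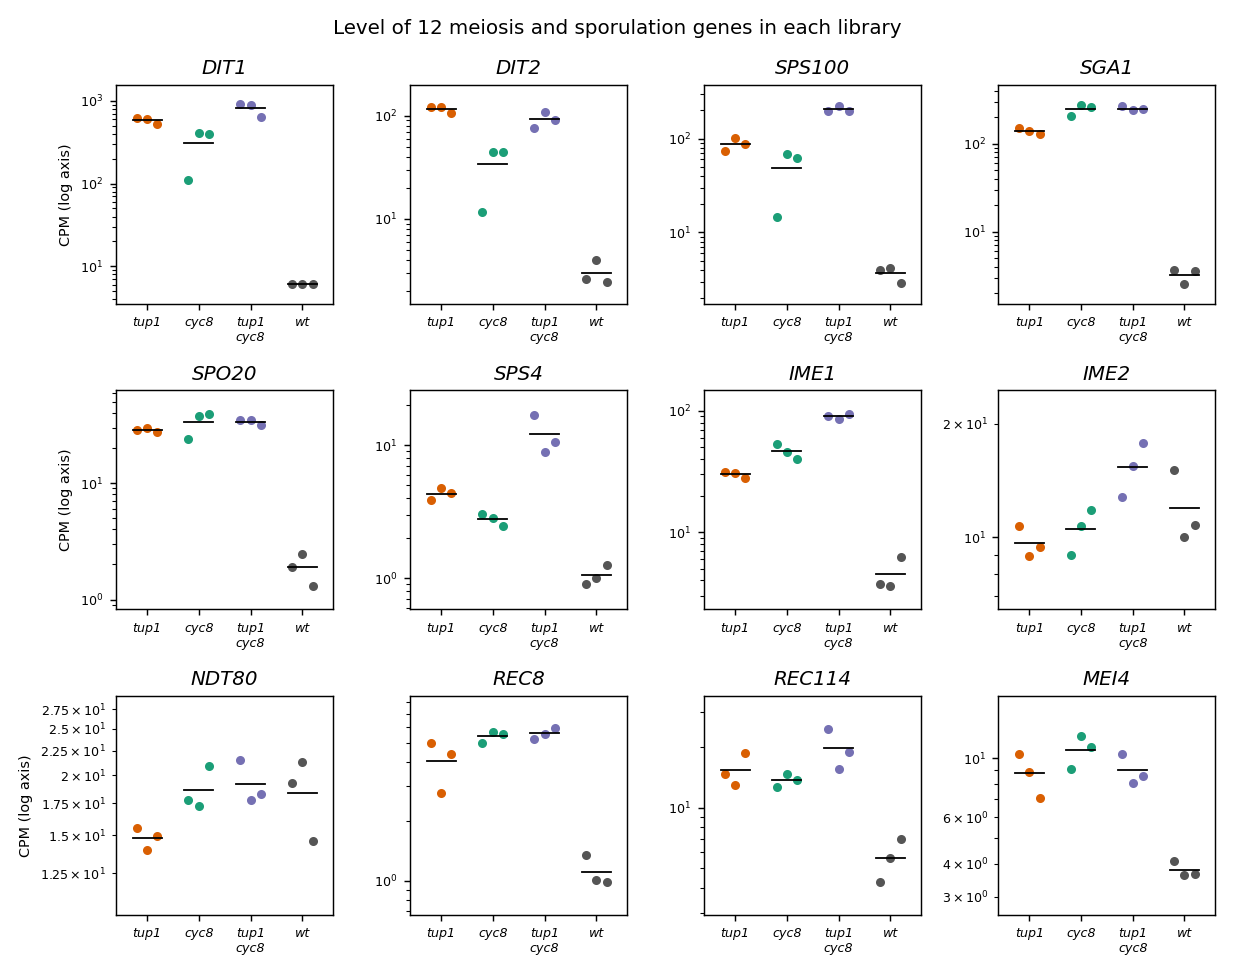
Level of 12 of the genes in each library, in CPM on a log axis whose range differs between panels, with points for the 3 libraries of a strain and a line at their mean. *IME1* rises in each mutant above every wt library, whereas *IME2* and *NDT80* keep to the wt range or close to it. The lowest *cyc8* point at *DIT1*, *DIT2* and *SPS100* is replicate 1.

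The early genes encode the machinery of meiotic recombination, chromosome axes and the synaptonemal complex. Of the 19 early genes tested in *tup1*, 4 were called up (*MEI4*, *REC8*, *REC114* and *SAE3*), where 7.27% of all genes were. In *cyc8* it was 4 of 18 (*SPO16*, *MEI4*, *REC8* and *REC114*), against 12.5%, and in *tup1 cyc8* 5 of 19 (*HOP2*, *MEI4*, *REC8*, *REC114* and *SAE3*), against 13.9%. By edgeR with TMM scaling, and by DESeq2, 0 early genes were called down, and 4, 2 and 2 were lower at an unadjusted edgeR p under 0.05 in these mutants. With scaling by library size alone *ZIP1*, of the synaptonemal complex, was called down in *cyc8*, and *ZIP1*, *SPO13* and *MER1* in *tup1 cyc8*.

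A short upstream sequence is shared by many early genes, the URS1 element bound by Ume6. Its core, GGCGGC on either strand within 500 bases upstream of the start codon, was found in 14 of the 20 early genes, in 2 of 20 middle genes, in 0 of 3 late genes, and in 9.55% of 5966 promoters of all protein-coding genes. All 6 early genes called up in a mutant hold it, as do 8 of the 14 that were not called up. The 6 sites of the genes called up are shown with 7 bases on each side and the core in capitals.
*SPO16* (chrVIII:402758-402777, minus strand): aaaagtgGGCGGCtaaaacc
*HOP2* (chrVII:435489-435508, plus strand): tgtcctcGGCGGCtaaattt
*MEI4* (chrV:239858-239877, minus strand): attgctgGGCGGCtaaatgt
*REC8* (chrXVI:571550-571569, minus strand): tgacttcGGCGGCaaaccaa
*REC114* (chrXIII:536108-536127, plus strand): caaggtgGGCGGCtaactta
*SAE3* (chrVIII:262650-262669, minus strand): gcctaatGGCGGCtattcta

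Sites of 5 early genes that were not called, and of *IME2*, are shown beside them because they hold the same core. *HOP1* is a chromosome axis protein whose site also lies upstream of *SPO22*, and *DMC1* is the meiotic recombinase.
*SPO13* (chrVIII:131945-131964, minus strand): ttttgtcGGCGGCtatttct
*HOP1* (chrIX:226424-226443, plus strand): taacctgGGCGGCtaaattg
*ZIP1* (chrIV:1032409-1032428, plus strand): taccctcGGCGGCtaaattt
*MER1* (chrXIV:250814-250833, minus strand): cactgtcGGCGGCtaaaatg
*DMC1* (chrV:548276-548295, minus strand): atccttgGGCGGCtattttc
*IME2* (chrX:220928-220947, plus strand): agacttcGGCGGCaaaaagc

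*REC8*, the meiotic cohesin subunit, rose in each mutant. It had 4.97, 2.77 and 4.40 CPM in *tup1*, 5.01, 5.64 and 5.51 CPM in *cyc8*, and 5.24, 5.55 and 5.92 CPM in *tup1 cyc8*, against 1.35, 1.01 and 0.978 CPM in wt. Every mutant library lay above the wt libraries, and the log2 fold change was 1.83 ± 0.29 (*tup1*), 2.27 ± 0.21 (*cyc8*) and 2.33 ± 0.21 (*tup1 cyc8*) (SE, edgeR adjusted p = 0.0022, 0.00015 and 4.7e-05). The call in *tup1* was lost without replicate 3 of *tup1* or replicate 2 of wt.

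*REC114*, which with Mei4 promotes the DNA breaks that start recombination, had 14.7, 12.9 and 18.7 CPM in *tup1*, 12.6, 14.8 and 13.7 CPM in *cyc8*, and 24.7, 15.7 and 19.0 CPM in *tup1 cyc8*, against 4.27, 5.64 and 7.01 CPM in wt. The mutant and wt libraries did not overlap, and the log2 fold change was 1.43 ± 0.20 (*tup1*), 1.28 ± 0.19 (*cyc8*) and 1.82 ± 0.22 (*tup1 cyc8*) (SE, edgeR adjusted p = 0.0011, 0.0017 and 0.0003). *MEI4* itself rose 2.27-fold in *tup1* (edgeR adjusted p = 0.0018), 2.83-fold in *cyc8* (adjusted p = 0.00035) and 2.39-fold in the double mutant (adjusted p = 0.00035), and the call in *tup1* was lost without replicate 2 of *tup1*.

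*SAE3*, a partner of the recombinase Dmc1, was among the rarest transcripts with a call. It had 1.61, 1.92 and 1.25 CPM in *tup1*, 0.749, 0.548 and 1.13 CPM in *cyc8*, and 1.77, 1.07 and 0.955 CPM in *tup1 cyc8*, against 0.393, 0.391 and 0.109 CPM in wt. Those values rest on 2 to 7 counts in a wt library, and *SAE3* was not tested in *cyc8*. The log2 fold change was 2.38 ± 0.44 (SE, edgeR adjusted p = 0.0053) in *tup1* and 2.09 ± 0.49 (adjusted p = 0.0082) in *tup1 cyc8*. The call in *tup1* was lost without any single *tup1* library or without replicate 1 or 2 of wt, and that in *tup1 cyc8* without any single library of the comparison.

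*HOP2*, which helps homologous chromosomes find each other, had 2.17, 1.32 and 1.68 CPM in *tup1*, 1.38, 1.64 and 1.27 CPM in *cyc8*, and 1.39, 2.21 and 2.39 CPM in *tup1 cyc8*, against 0.562, 0.615 and 0.815 CPM in wt. All mutant libraries lay above wt, although only the change in *tup1 cyc8* passed (log2 fold change 1.58 ± 0.33 (SE), edgeR adjusted p = 0.0045). *SPO16*, of the synaptonemal complex, had 1.61, 2.17 and 2.39 CPM in *tup1*, 2.48, 3.45 and 4.45 CPM in *cyc8*, and 1.23, 1.94 and 1.62 CPM in *tup1 cyc8*, against 1.12, 0.950 and 1.47 CPM in wt. It passed only in *cyc8* (log2 fold change 1.54 ± 0.30 (SE), edgeR adjusted p = 0.006). The *HOP2* call was lost without replicate 2 or 3 of *tup1 cyc8* or replicate 1 or 2 of wt, and the *SPO16* call without replicate 2 or 3 of *cyc8* or any single wt library.

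The early genes that were not called spanned log2 fold changes of -0.84 (*SPO13*) to 1.34 (*HOP2*) in *tup1*, -0.67 (*ZIP1*) to 1.09 (*HOP2*) in *cyc8* and -0.60 (*MER1*) to 0.80 (*REC104*) in *tup1 cyc8*. *SPO11*, the nuclease that makes meiotic breaks, was at 1.74 to 2.87 CPM in *tup1*, 2.36 to 2.76 CPM in *cyc8* and 1.72 to 3.08 CPM in *tup1 cyc8*, against 2.42 to 2.88 CPM in wt. *MEI5*, the partner of *SAE3*, had at most 3 counts in every library of *tup1* and *tup1 cyc8* and at most 7 in any library.

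The middle genes act in the divisions and in building the prospore membrane and spore wall, and 17 of 20 had enough counts to test in each mutant. The same 3 were called up in *tup1*, *cyc8* and *tup1 cyc8*, namely *SGA1*, *SPO20* and *SPS4* (3 of 17, against the same 7.27%, 12.5% and 13.9% of all genes), and *SSP1* was the single gene called down, in *tup1 cyc8*. The middle sporulation element bound by Ndt80 and Sum1 was searched as its core CACAAAA, which was found on either strand upstream of 14 of the 20 middle genes, 0 of 20 early genes and 12.5% of all promoters. Of the 3 middle genes that rose, *SPO20* and *SPS4* hold these exact letters and *SGA1* does not. Other forms of the element were not searched. The stretches of *SGA1* and *DIT1* printed below hold cacaaat, which differs from the searched letters in the last base. Sites of *SPO20*, *SPS4*, *SSP1* and *NDT80* are shown with the core in capitals. A further match of *NDT80*, 86 to 80 bases upstream on the other strand, is left out.
*SPO20* (chrXIII:307144-307164, plus strand): cactctaCACAAAAttacttg
*SPS4* (chrXV:903051-903071, minus strand): cgcgcgcCACAAAAacgtatc
*SSP1* (chrVIII:472642-472662, plus strand): caggcgaCACAAAAtcatgaa
*NDT80* (chrVIII:356335-356355, plus strand): cgtatgaCACAAAAgagtaga

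*SGA1* changed the most among the middle genes. It had 153, 139 and 129 CPM in *tup1*, 205, 275 and 263 CPM in *cyc8*, and 266, 239 and 247 CPM in *tup1 cyc8*, against 3.65, 2.57 and 3.59 CPM in wt. The *tup1* libraries were lower than those of either other mutant, and all 9 lay far above wt. Loss of *TUP1* gave a 42.3-fold rise (log2 fold change 5.40 ± 0.16 (SE), edgeR adjusted p = 1.3e-07), loss of *CYC8* a 75.7-fold rise (6.24 ± 0.21, adjusted p = 1.5e-06) and *tup1 cyc8* showed a 77.0-fold rise (6.27 ± 0.16, adjusted p = 6.4e-08). *SGA1* lies on chromosome IX (178004 to 179653, plus strand).

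The upstream stretch of *SGA1* is printed because it holds 5 matches to AGGGG, a core shared by sites of the glucose repressor Nrg1 and by stress response elements, and a match to GCCAAG, the site of the repressor Rim101. AGGGG occurs in 34.0% of all promoters and GCCAAG in 19.0%, and capitals mark both on either strand.
*SGA1* (chrIX:177569-177868, plus strand): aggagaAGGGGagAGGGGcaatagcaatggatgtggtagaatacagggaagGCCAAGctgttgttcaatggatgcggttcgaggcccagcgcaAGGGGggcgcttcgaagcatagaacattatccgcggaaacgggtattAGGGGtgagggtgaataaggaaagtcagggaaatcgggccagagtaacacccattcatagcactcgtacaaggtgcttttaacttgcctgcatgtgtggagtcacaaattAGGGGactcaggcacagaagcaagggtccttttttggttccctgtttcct

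*SPO20* had 28.9, 29.7 and 27.2 CPM in *tup1*, 23.9, 37.9 and 39.6 CPM in *cyc8*, and 35.1, 34.8 and 31.6 CPM in *tup1 cyc8*, against 1.91, 2.46 and 1.30 CPM in wt. The 3 mutants reached about the same level, with a log2 fold change of 3.90 ± 0.19 (*tup1*), 4.16 ± 0.29 (*cyc8*) and 4.17 ± 0.19 (*tup1 cyc8*) (SE, edgeR adjusted p = 1.4e-06, 3.5e-05 and 8.2e-07). Between mutants the differences ran from 0.01 to 0.24 on the log2 scale, each with a standard error of 0.18. The stretch around its CACAAAA site also holds 2 matches to GCCAAG, the site of the repressor Rim101, on the other strand, in capitals.
*SPO20* (chrXIII:307144-307207, plus strand): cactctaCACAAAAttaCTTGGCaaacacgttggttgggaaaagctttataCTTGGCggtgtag

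*SPS4*, a sporulation gene whose molecular role is not well defined, was most abundant in *tup1 cyc8*. It had 3.85, 4.75 and 4.34 CPM in *tup1*, 3.05, 2.82 and 2.47 CPM in *cyc8*, and 16.7, 8.90 and 10.5 CPM in *tup1 cyc8*, against 0.899, 1.01 and 1.25 CPM in wt. No libraries of different strains overlapped. The log2 fold change was 2.01 ± 0.22 (*tup1*), 1.40 ± 0.24 (*cyc8*) and 3.52 ± 0.30 (*tup1 cyc8*) (SE, edgeR adjusted p = 0.00027, 0.0031 and 3.6e-05). The call in *cyc8* was lost without replicate 2 or 3 of *cyc8* or replicate 1 or 2 of wt.

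*SSP1*, part of the coat at the leading edge of the prospore membrane, was lower in every mutant library than in wt. It had 0.910, 1.20 and 1.03 CPM in *tup1*, 1.09, 1.25 and 1.56 CPM in *cyc8*, and 1.08, 0.803 and 1.24 CPM in *tup1 cyc8*, against 2.19, 2.07 and 2.12 CPM in wt. Only *tup1 cyc8* passed both limits, and narrowly (log2 fold change -1.04 ± 0.25 (SE), edgeR adjusted p = 0.0098), and the call was lost with DESeq2, with RLE size factors, with no filter on low counts, and without any single library of the comparison.

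The remaining middle genes spanned -1.67 (*SPS1*) to 0.65 (*SPO77*) in *tup1*, -1.34 (*SPO74*) to 1.03 (*SPR3*) in *cyc8* and -1.94 (*SPO74*) to 1.07 (*SPS22*) in *tup1 cyc8*. *SMK1*, the meiotic MAP kinase, had the highest level per kilobase of the 46 genes in wt and was not called in any mutant, with its lowest log2 fold change, -0.55 ± 0.10 (SE, edgeR adjusted p = 0.0041), in *tup1*. *SPO77*, which works with Smk1 in spore wall assembly, had a log2 fold change of 0.93 ± 0.15 in *cyc8* (SE, edgeR adjusted p = 0.0025), and in the double mutant one of 0.91 ± 0.16 (adjusted p = 0.0022), just short of the fold limit. *SPO19* had at most 3 counts in every library of *tup1* and *tup1 cyc8*, and *CDA2*, a chitin deacetylase of the spore wall, in every library of *cyc8*. These, with *CDA1*, were not tested against wt.

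All 3 late genes rose in each mutant. *DIT1* and *DIT2* make the dityrosine precursor of the outermost spore wall layer, Dit1 in the first step and Dit2, a cytochrome P450, in the next. They are transcribed away from each other from a shared stretch of 898 bases on chromosome IV, *DIT1* at 1274602 to 1276212 on the plus strand and *DIT2* at 1272234 to 1273703 on the minus strand.

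*DIT1* had 622, 597 and 532 CPM in *tup1*, 112, 409 and 397 CPM in *cyc8*, and 910, 892 and 635 CPM in *tup1 cyc8*, against 6.07, 6.03 and 6.14 CPM in wt. Even the lowest *cyc8* library, replicate 1, lay far above the wt libraries, and the *cyc8* libraries were all below those of *tup1*. Loss of *TUP1* gave a 94.7-fold rise (log2 fold change 6.56 ± 0.13 (SE), edgeR adjusted p = 9.1e-08), loss of *CYC8* a 50.3-fold rise (5.65 ± 0.52, adjusted p = 0.00015) and *tup1 cyc8* showed a 134-fold rise (7.07 ± 0.19, adjusted p = 6.9e-08). Without replicate 1 of *cyc8* the value there was 6.03 (adjusted p = 5.4e-07).

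*DIT2* had 122, 122 and 106 CPM in *tup1*, 11.7, 44.9 and 44.7 CPM in *cyc8*, and 75.4, 109 and 91.7 CPM in *tup1 cyc8*, against 2.64, 3.97 and 2.44 CPM in wt. Again *cyc8* was lowest among the mutants and its replicate 1 the lowest library. The rise was 38.1-fold in *tup1* (log2 fold change 5.25 ± 0.19 (SE), edgeR adjusted p = 2.7e-07), 11.1-fold in *cyc8* (3.48 ± 0.53, adjusted p = 0.0018) and 30.7-fold in *tup1 cyc8* (4.94 ± 0.22, adjusted p = 8.5e-07). Without replicate 1 of *cyc8* the *cyc8* value of *DIT2* was 3.88 (edgeR adjusted p = 9.3e-06). In *cyc8* the calls of *DIT2* and *SPS100* were lost without wt replicate 1 or wt replicate 3.

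The partners of this divergent pair did not keep a fixed proportion. *DIT1* had 4.88 to 5.11 times the CPM of *DIT2* in *tup1*, 8.89 to 9.53 times in *cyc8* and 6.93 to 12.1 times in *tup1 cyc8*, against 1.52 to 2.51 times in wt. The *cyc8* ratio was tight in spite of the low replicate 1, in which both genes had their lowest *cyc8* level.

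*SPS100*, a protein of spore wall maturation on chromosome VIII (378219 to 379199, minus strand), had 74.3, 101 and 88.3 CPM in *tup1*, 14.5, 68.8 and 62.7 CPM in *cyc8*, and 197, 225 and 197 CPM in *tup1 cyc8*, against 3.99, 4.19 and 2.88 CPM in wt. The order of strains at *SPS100* was the same as at *DIT1*. It rose 23.5-fold in *tup1* (log2 fold change 4.55 ± 0.19 (SE), edgeR adjusted p = 5.5e-07), 13.1-fold in *cyc8* (3.72 ± 0.57, adjusted p = 0.002) and 56.4-fold in *tup1 cyc8* (5.82 ± 0.17, adjusted p = 9.1e-08). Its *cyc8* value was 4.14 without replicate 1 of *cyc8* (edgeR adjusted p = 3.6e-06).

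The regions upstream of the late genes are shown because AGGGG was found within 500 bases of all 3 and neither the URS1 core nor the exact letters CACAAAA were. AGGGG occurs in 34.0% of all promoters, in 4 of the 13 genes called up in a mutant and in 11 of the 33 not called up. *DIT1* and *DIT2* share their upstream stretch, so the same match lies 442 to 438 bases upstream of *DIT1* and 461 to 457 of *DIT2*. GCCAAG was found upstream of *DIT2* and *SPS100*, and in 19.0% of all promoters. Capitals mark AGGGG and GCCAAG on either strand, and the first stretch lies between *DIT2* and *DIT1*.
*DIT1* (chrIV:1274067-1274366, plus strand): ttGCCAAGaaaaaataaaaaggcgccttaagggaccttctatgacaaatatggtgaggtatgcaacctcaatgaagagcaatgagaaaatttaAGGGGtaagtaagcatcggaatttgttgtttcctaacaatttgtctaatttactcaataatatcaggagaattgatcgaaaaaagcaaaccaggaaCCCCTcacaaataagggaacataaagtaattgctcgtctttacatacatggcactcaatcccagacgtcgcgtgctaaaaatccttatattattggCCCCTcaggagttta
*SPS100* (chrVIII:379300-379499, minus strand): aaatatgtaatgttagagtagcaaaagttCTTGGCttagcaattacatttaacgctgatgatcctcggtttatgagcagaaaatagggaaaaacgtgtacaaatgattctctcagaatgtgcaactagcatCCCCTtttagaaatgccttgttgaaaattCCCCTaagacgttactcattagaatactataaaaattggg

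**Figure D3:**
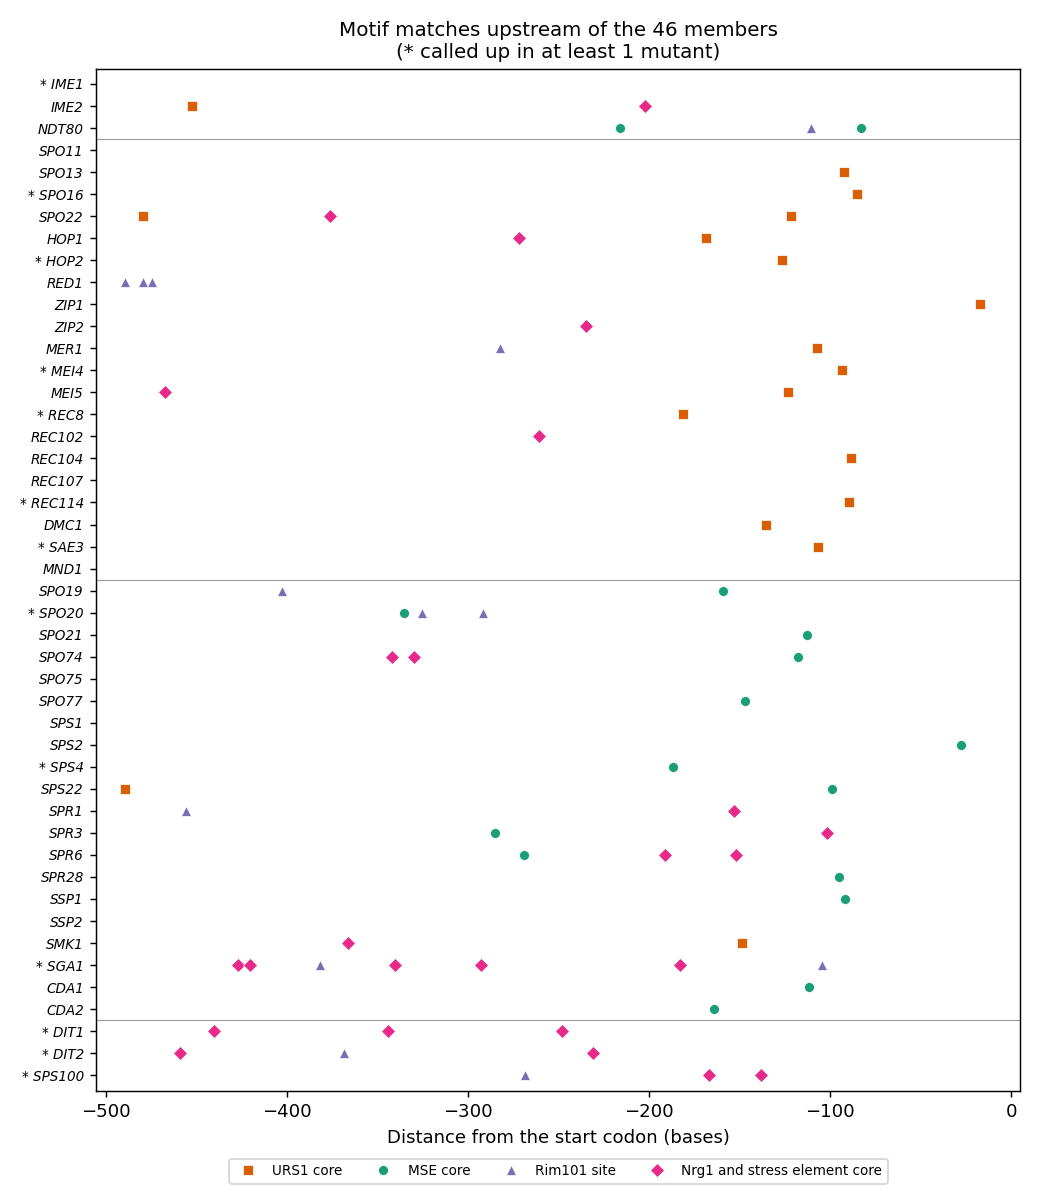
Position of motif matches on either strand within 500 bases upstream of the start codon of the 46 genes, in bases, with genes grouped from top to bottom as regulators, early, middle, and mid-late and late. Squares mark the URS1 core, circles the middle element core, triangles the Rim101 site and diamonds the Nrg1 and stress element core, and an asterisk marks genes called up in a mutant. Squares fall mainly among the early genes and circles among the middle genes, with and without an asterisk.

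Summed over all 46 genes, the level was 1110 to 1227 CPM in *tup1*, 617 to 1116 CPM in *cyc8* and 1533 to 1830 CPM in *tup1 cyc8*, against 206 to 242 CPM in wt. *DIT1* alone made up 47.9% to 50.7% of the sum in *tup1*, 18.1% to 37.0% in *cyc8* and 41.4% to 49.7% in *tup1 cyc8*, against 2.49% to 2.99% in wt. Without *DIT1*, *DIT2*, *SPS100*, *SGA1*, *IME1* and *SPO20*, which were picked after their values were seen, the other 40 genes summed to 184 to 200 CPM in *tup1*, 197 to 234 CPM in *cyc8* and 228 to 255 CPM in *tup1 cyc8*, against 183 to 219 CPM in wt. On the TMM scale the sum of the 40 overlapped wt in *tup1* and *cyc8* and lay above it in *tup1 cyc8*. The TMM factors were 1.03 to 1.11 in *tup1*, 0.89 to 0.99 in *cyc8*, 0.83 to 0.89 in *tup1 cyc8* and 1.16 to 1.20 in wt. Multiplying a sum by the factor of its library puts it on the scale of library size alone. On that scale the sum of the 40 in *tup1 cyc8* no longer lay above wt, so its place above wt rests on the TMM scaling. In CPM per kilobase of gene, *DIT1* held rank 1 of the 46 in every mutant and rank 15 in wt.

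**Figure D4:**
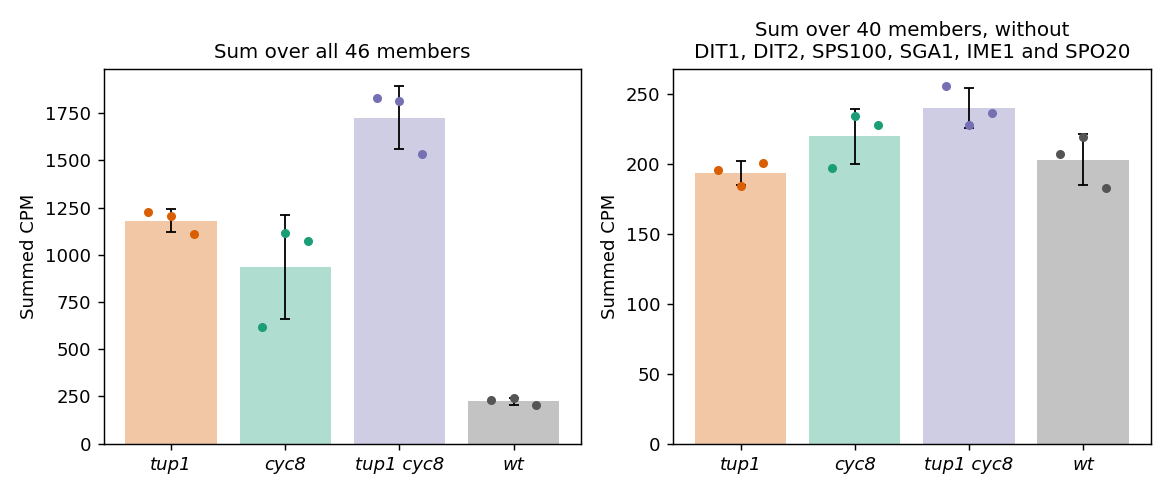
Summed level in CPM of all 46 genes (left) and of the 40 genes without *DIT1*, *DIT2*, *SPS100*, *SGA1*, *IME1* and *SPO20* (right), with points for libraries, bars for the mean and error bars for the SD of 3 libraries. The sum of 46 is 617 to 1830 CPM in mutant libraries and at most 242 CPM in wt, whereas the sum of 40 stays between 183 and 255 CPM in all 12 libraries.

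The mutants were then compared with each other in a fit of all 12 libraries, with a call at adjusted p values up to 0.01 and no fold limit. Of the 43 genes tested, edgeR called 3 as higher in *tup1 cyc8* compared with *cyc8* (3.09% of all genes) and none was lower (0.801%). At an unadjusted p under 0.05, 3 were lower, and DESeq2 called 2 lower. *IME1* was higher by 0.96 ± 0.16 on the log2 scale (SE, edgeR adjusted p = 0.0023), *SPS4* by 2.11 ± 0.24 (adjusted p = 9.1e-05) and *SPS100* by 2.09 ± 0.40 (adjusted p = 0.0055). *DIT1* had a difference of 1.41 ± 0.35 with an adjusted p of 0.022 and *DIT2* one of 1.45 ± 0.36 with 0.023. Without replicate 1 of *cyc8* the difference was 1.63 for *SPS100* (edgeR adjusted p = 3.4e-05), 0.99 for *DIT1* (adjusted p = 0.00081) and 1.02 for *DIT2* (adjusted p = 0.0019), and all 3 passed.

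Against *tup1*, 4 genes were higher in *tup1 cyc8* by edgeR (9.26% of all genes) and none was lower (4.62%), with 2 lower at an unadjusted p under 0.05 and 0 by DESeq2. These were *IME1* by 1.59 ± 0.17 (SE, edgeR adjusted p = 3.5e-05), *SPS4* by 1.48 ± 0.22 (adjusted p = 0.00055), *SGA1* by 0.84 ± 0.14 (adjusted p = 0.001) and *SPO22*, of the synaptonemal complex, by 0.56 ± 0.11 (adjusted p = 0.0029). *SPS100* had a difference of 1.23 ± 0.39 (adjusted p = 0.031), which was 1.21 with an adjusted p of 4.8e-05 when replicate 1 of *cyc8* left the shared fit. Libraries of these strains with the same replicate number had residual correlations of 0.19 to 0.33, against -0.14 to 0.34 for *tup1* and wt. So few libraries do not show whether they were paired. A fit of the 6 libraries of *tup1* and *tup1 cyc8* with the replicate as a block was added after the data were seen. It called 6 genes higher: the 4 above, *SPS100* (1.22 ± 0.10, edgeR adjusted p = 9.2e-05) and *DMC1* (0.63 ± 0.13, adjusted p = 0.0072).

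In *cyc8* against *tup1*, *SGA1* was higher by 0.82 ± 0.14 (SE, edgeR adjusted p = 0.0012) and *MER1*, a meiotic splicing factor, by 0.86 ± 0.20 (adjusted p = 0.0076), 2 genes where 9.77% of all genes were higher. *DIT2* was lower by this test (log2 difference -1.79 ± 0.36, adjusted p = 0.0035, where 5% of all genes were lower), and still so without replicate 1 of *cyc8* (-1.38, adjusted p = 0.0001). *MER1* no longer passed without that library (0.75, adjusted p = 0.015).

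The change in *tup1 cyc8* was also set against the sum of the changes in *tup1* and *cyc8* on the log2 scale. It fell short of the sum at 8 of the 43 genes tested, where 6.79% of all genes did so, and by edgeR exceeded it at none (2.32%), with 4 above it at an unadjusted p under 0.05. The *cyc8* allele differs between the single and the double mutant, which cannot be told apart from such a departure. At *SGA1* the shortfall was -5.41 ± 0.22 (SE, edgeR adjusted p = 6.9e-09), and the difference of *tup1 cyc8* from *cyc8* was 0.01 ± 0.14 (adjusted p = 0.96). *SPS4* gave 0.08 ± 0.40 (adjusted p = 0.92), so that its value in *tup1 cyc8* lay close to the sum of the single values, with an error that leaves room for a departure in either direction.

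Other genes of the programme, in lists of 13 early and 20 middle and later genes outside the 46, were mostly uncalled as well. Of the other early genes, 0 of 9 tested were called up and 1 down in *tup1*, 1 of 10 up and 1 down in *cyc8*, and 2 of 9 up and 0 down in *tup1 cyc8*. Over all genes the shares were 7.27%, 12.5% and 13.9% up and 1.43%, 1.91% and 1.88% down in the same mutants. *RIM4*, an RNA-binding translational repressor of meiosis, rose in *cyc8* and *tup1 cyc8* (log2 fold change 1.95 and 2.21), whereas *NDJ1*, which tethers telomeres in meiosis, fell in *cyc8* (-1.92) and the crossover gene *MSH5* in *tup1* (-1.15). Of 18 other middle and later genes tested, 2 were called up and 2 down in *tup1*, 3 up and 2 down in *cyc8*, and 3 up and 1 down in *tup1 cyc8*, so that the shares called up were near those of all genes. *RIM4* had 37.1, 93.9 and 82.5 CPM in the *cyc8* libraries and a log2 fold change of 2.24 without replicate 1 of *cyc8* (edgeR adjusted p = 8.1e-06).

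The prospore membrane genes *SPO73* and *SMA1* were up in each mutant. *SMA1* had a log2 fold change of 2.21 (*tup1*), 3.38 (*cyc8*) and 3.07 (*tup1 cyc8*), and *SPO73* one of 1.49, 2.34 and 1.91 in the same mutants. *LDS2*, a lipid droplet protein needed for the outer spore wall, rose in *cyc8* (2.59, and 2.99 without replicate 1 of *cyc8*) and *tup1 cyc8* (3.77). *SMA2*, also of the prospore membrane, was down in each (-1.05, -1.23 and -1.08), *DTR1*, the dityrosine transporter, in *tup1* (-1.09) and *GAS2*, a spore wall glucan enzyme, in *cyc8* (-1.56).

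Of 13 tested repressors and upstream regulators of the programme, *NRG1* and *NRG2*, glucose repressors that recruit Tup1-Cyc8, were up in each mutant, and *RME1*, the haploid repressor of *IME1*, in *tup1 cyc8* alone by these limits (log2 fold change 1.03 ± 0.19 (SE), edgeR adjusted p = 0.0027). *NRG1* had 140, 128 and 107 CPM in *tup1*, 564, 616 and 586 CPM in *cyc8*, and 492, 549 and 526 CPM in *tup1 cyc8*, against 38.9, 32.8 and 25.9 CPM in wt. *UME6*, *SIN3*, *RPD3* and *SUM1*, which encode repressors of early and middle genes, were not called in any mutant. Of the 13, every mutant library lay below the wt libraries at *SIN3*, *SUM1* and *HST1*, and above them at *NRG1*, *NRG2* and *RIM101*. *HST1* and *RIM101* were not called in any mutant either. How many of all genes lay apart from wt in this way was not counted. At *SIN3* the log2 fold change was -0.59 in *tup1* (edgeR adjusted p = 0.0044) and -0.64 in *cyc8* (adjusted p = 0.004), short of the fold limit, and -0.25 in *tup1 cyc8* (adjusted p = 0.052). *IME4* had 0 counts in all 12 libraries. Its antisense transcript *RME2* had 168 to 279 counts, and, although the libraries were strand-specific, the strand setting of the counting is not given in the sources used here, so whether reads of these overlapping genes were separated is unknown. *RME2*, like *IRT1* below, was chosen after its values were seen.

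*IRT1*, a noncoding RNA whose gene lies 284 bases upstream of *IME1* on the same strand and whose transcription is known to repress *IME1*, had 34.6, 27.2 and 33.5 CPM in *tup1*, 46.2, 82.5 and 86.5 CPM in *cyc8*, and 132, 92.6 and 91.4 CPM in *tup1 cyc8*, against 17.9, 21.1 and 16.8 CPM in wt. It was higher in every mutant library than in wt, as *IME1* was. Its log2 fold change passed both limits in *cyc8* and *tup1 cyc8*, at 1.95 ± 0.24 (SE, edgeR adjusted p = 0.00067, and 2.17 without replicate 1 of *cyc8*) in the single mutant and 2.51 ± 0.17 (adjusted p = 1e-05) in *tup1 cyc8*, and was 0.75 ± 0.13 (adjusted p = 0.0036) in *tup1*. The 46 genes were spread over the genome, with 10.9% within 50 kb of a chromosome end, against 11.6% of all protein-coding genes in the tables.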

How the data were processed

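Strand-specific RNA-seq libraries from 3 biological replicates of *tup1*, *cyc8*, *tup1 cyc8* and wt were analysed. The authors trimmed reads with Trimmomatic 0.36, mapped them to S288c with STAR 2.5.2b and deposited raw counts per gene from featureCounts (Subread 1.5.2), without normalisation. The 3 wt libraries are the same in the 3 count tables. Deposited tables of normalised values were not used. A line without a gene name (0.0647% to 0.340% of the counts) was left out.

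Counts were tested in R 4.3.3 with edgeR 4.0.16 (limma 3.58.1): filterByExpr, TMM, estimateDisp, glmQLFit and glmQLFTest on all genes, each mutant against wt in 6 libraries and mutants with each other in 12. CPM came from the fit of 12, with its TMM factors. A standard error is |log2 fold change| over the root of its F statistic. The script was tested on simulated data. Alternatives were DESeq2 1.42.0, RLE or library size scaling, no filter, an adjusted p of 0.05, other fold limits or fits, a replicate block, and leaving out each library.

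The genes and lists were chosen with earlier results of these data known. Values per library are given for *IME1*, *IME2*, *NDT80*, *DIT1*, *DIT2*, and the early and middle genes with the largest called changes, up to 5 per class; *SPS100* and *NRG1* were added after their values were seen. Same-number libraries of *tup1* and *tup1 cyc8* had residual correlations of 0.19 to 0.33. The main tests did not pair libraries, in that comparison or in any other, and the replicate was a block in alternative fits only. Positions and sequences come from RefSeq R64. The build number used for mapping is not given in the sources used here. Motifs were searched as plain letters, and a match is no evidence of binding. Python 3.11.15 and matplotlib 3.10.9 drew the plots.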

Additional observations from a re-analysis of the deposited data

Results flagged for a closer look

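At 8 of the 43 genes tested the *tup1* effect differed between strains with wild-type and with disrupted *CYC8*, by the interaction term of the fit of 12 libraries (edgeR, adjusted p up to 0.01). The single mutant carries cyc8::KAN and the double mutant cyc8::URA3, with *CYC8* counts left in the latter. A difference between these alleles cannot be told apart from the interaction. In each case the change in *tup1 cyc8* was smaller than the sum of the single changes on the log2 scale. The term was -5.41 for *SGA1*, -5.17 for *DIT1*, -3.91 for *SPO20*, -3.81 for *DIT2*, -1.90 for *SPO16*, -1.81 for *REC8*, -1.76 for *IME1* and -1.46 for *MEI4*. *SPO16* had a level in *tup1 cyc8* that overlapped wt although it was up in *cyc8*, whereas every *tup1 cyc8* library lay above every library of the single mutants at *IME1* and *DIT1*.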

How the results depend on the processing

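Of the 35 calls of a gene in a mutant against wt, 23 held under every alternative and without every single library, among them all calls of *IME1*, *SPO20*, *SGA1* and *DIT1*, and none of the 35 changed direction. Leaving out a library gave 9 to 11 genes called up in *tup1*, 7 to 11 in *cyc8* (7 without replicate 1 of wt, 11 without replicate 1 of *cyc8*) and 10 to 11 in *tup1 cyc8*, and 0 to 2, 0 to 1 and 0 to 2 called down. It gave 1 to 5 genes higher (5 without replicate 1 of *cyc8*) and 0 to 2 lower in *tup1 cyc8* than *cyc8*, for *tup1 cyc8* over *tup1* 3 to 6 higher and 0 lower, for *cyc8* over *tup1* 1 to 3 higher and 0 to 1 lower, and 7 to 9 departures from the sum.

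DESeq2 called 1 gene down in *tup1*, 6 higher and 2 lower in *tup1 cyc8* than *cyc8*, and 4 higher in *cyc8* than *tup1*. With RLE size factors, or with no filter on low counts, 0 were called down in *tup1 cyc8*. Scaling by library size alone moved the median of all genes to -0.16 (*tup1*), -0.38 (*cyc8*) and -0.50 (*tup1 cyc8*). It called 1 gene down in *tup1*, 3 for *cyc8* and 7 for *tup1 cyc8*, 2 lower in *tup1 cyc8* than *cyc8*, 2 higher and 2 lower in *tup1 cyc8* than *tup1*, and 1 higher and 2 lower in *cyc8* than *tup1*. Changes are therefore relative to the TMM scale.

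At an adjusted p of 0.05, 1 was down in *tup1*, 1 for *cyc8* and 2 for *tup1 cyc8*, 6 were higher and 3 lower in *tup1 cyc8* than *cyc8*, 9 higher and 1 lower in *tup1 cyc8* than *tup1*, 6 higher and 2 lower in *cyc8* than *tup1*, and 15 departed from the sum. A fit of all 12 libraries gave 1, 1 and 2 down in the 3 mutants, and no fold limit gave 1 down in *tup1*. A fold limit between mutants left 2 higher in *tup1 cyc8* than *tup1* and 0 higher in *cyc8* than *tup1*. With only the 6 libraries compared, 1 was higher and 0 lower in *cyc8* than *tup1*.

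With the replicate number as a block, 32 of the 35 calls held, and those of *SPS4* in *cyc8* and of *SAE3* and *SSP1* in *tup1 cyc8* did not. The block left 1 gene higher in *cyc8* than *tup1*. For the comparison of *tup1 cyc8* with *tup1*, which the main test did not pair, the block gave 4 higher in the fit of 12 libraries and 6 in the fit of 6 (added with the data in view). Over all 18 same-number pairs of libraries the residual correlation was -0.15 to 0.34 (median 0.04). Depth limits the rarest genes: *SAE3* rests on 2 to 7 counts in wt libraries, and *MEI5*, *SPO19*, *CDA1* and *CDA2* could not be tested against wt.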

Other observations

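The genes next to those called up were looked at after the values of the 46 genes were seen. In *tup1*, 8 of 20 tested neighbours outside the 46 were called up as well, where the share over all genes was 7.27%. In *cyc8* it was 8 of 19, against 12.5%, and in *tup1 cyc8* 11 of 22, against 13.9%. *XBP1*, a stress-induced transcriptional repressor transcribed away from *SGA1* across 753 bases, rose by 3.51 (*tup1*), 4.73 (*cyc8*) and 5.02 (*tup1 cyc8*) on the log2 scale. *PEX9*, a peroxisomal import receptor downstream of *SPO20*, rose by 2.22 in both single mutants and 2.65 in the double mutant. *ICL2*, which follows *REC8*, rose by 1.29 (*tup1*), 2.34 (*cyc8*) and 2.07 (*tup1 cyc8*), and *ACA1*, a transcription factor upstream of *MEI4*, by 1.20, 2.43 and 2.44 in the same mutants. By contrast both neighbours of *REC114*, *JLP2* and *ERG29*, were called in no mutant. How a gene and its neighbour are related was not tested.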
